A study of Mus musculus with 4 samples.

Results

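The genes described here are 10 markers of astrocytes: Gfap, Aqp4, Aldh1l1, Gja1, Gjb6, S100b, Sox9, Ndrg2, Fabp7 and Sparcl1. They were taken by gene symbol from the non-control spots present on all 4 arrays, without the transporters and enzyme of the glutamate cycle. The arrays carried 14 probes for these 10 genes, of 55681 probes and 24185 gene symbols in all. Each of 7 genes had a single probe, whereas Gfap had 3 and Aqp4 and Aldh1l1 had 2 each. Of the 14 probes, 13 were well above background on all 4 arrays, and all 14 passed the filter of 2 arrays used for the tests.

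RNA immunoprecipitation (RIP) followed by microarray was used to ask which transcripts are recovered with CPEB2. Cortical and hippocampal lysate of C57BL/6 mice, all male and 8 weeks old, was divided and incubated for 3 h with beads carrying CPEB2 IgG or control IgG, in 2 experiments. RNA from each precipitate was amplified, labeled with Cy3 and hybridized to its own one-color array, which gave 2 arrays for each antibody. All groups shared the same tissue, strain, sex and age, and the labels name no mutation or treatment. The samples' titles, the protocol and the methods name CPEB2 for the first antibody, but a free-text field of the same 2 samples names CPEB3, so the antibody rests on the former. The precipitates came from whole tissue, in which astrocytes, neurons and other cells are mixed, so the values do not tell from which cells an RNA came. No RNA of the lysate before precipitation was on these arrays, so every value compares the RNA recovered with one antibody with that recovered with the other.

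Astrocytes are the glial cells that supply neurons with metabolites, clear glutamate and potassium around synapses, couple to each other through gap junctions and cover blood vessels with their endfeet. Their marker genes include a transcription factor, membrane channels, metabolic enzymes, filament and calcium-binding proteins and secreted proteins. Many neuronal mRNAs carry, near their 3′ end, a short stretch rich in U called the cytoplasmic polyadenylation element (CPE), to which CPEB2 and its relatives attach when they regulate translation.

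The probes are 60 bases long, and the last 30 bases (bases 31 to 60, 5′ to 3′) of 8 of them are shown because the results turn on them: the 3 Gfap probes and the 2 Aldh1l1 probes, which allow a comparison within a gene, and the probes of the genes with the largest changes in each direction. The mm9 positions, as annotated on the array, cover the whole probe, and capitals mark a match to the poly(A) signal AATAAA. The Sox9 probe lies at chr11:112648809-112648868 on the + strand, and those of Gjb6 and Ndrg2 at chr14:57742226-57742285 and chr14:52525238-52525297 on the − strand. The brighter Aldh1l1 probe lies at chr6:90549091-90549150 and the dimmer one at chr6:90550028-90550087, both on the + strand. The Gfap probes lie on the − strand at chr11:102748864-102748923 for variant 2, chr11:102751813-102751872 for the brighter probe of variant 1 and chr11:102752726-102752785 for its dimmer probe.
Sox9: catctttcgatttctgtataaaaacagacc
Gjb6: gaatatgaatggaatcgaaggaagtgggac
Ndrg2: tccttaatgtgatagaaatatccagcatgt
Aldh1l1, brighter probe: gtcatgtcccccatgAATAAAaattgtgag
Aldh1l1, dimmer probe: atacgtgatggggccgtgtaaaccccacca
Gfap variant 2: cagcctggtggctagtgccttcatattaga
Gfap variant 1, brighter probe: aggttaggttgtactaatagagctagccta
Gfap variant 1, dimmer probe: acaggctcaccagattgaaaatggagccct

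The CPE, searched as TTTTAT and, in its longer form with another A, as TTTTAAT, was on the printed strand of 0 of the 14 marker probes and of 4.54% of all 55681 probes. On the opposite strand these letters were found in 2 of the 14, those of Sox9 and the brighter Aldh1l1 probe, against 6.50% of all probes, and in Aldh1l1 they overlap its poly(A) signal. AATAAA itself was on the printed strand of 1 of the 14, the brighter Aldh1l1 probe, and of 10.1% of all probes, while ATTAAA was on none of the 14 and on 3.95% of all. A probe covers a small piece of a transcript, so these matches describe the probe and not the whole 3′ end.

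The signals given below are the scanner software's background-corrected spot intensities before any scaling between arrays. The change is the log2 fold change, CPEB2 IgG minus control IgG, after each array was scaled to its own 75th percentile, given as mean ± SD over the 2 experiments. Adjusted p-values are from limma with the experiment as a block, two-sided, with Benjamini-Hochberg adjustment over 41133 probes, and a probe was called at an adjusted p below 0.05. Per array, 68.4% to 74.1% of spots were well above background, 0 were saturated, and the median signal lay between 59.0 and 76.5. The control IgG arrays held positions 1 and 2 of the slide and the CPEB2 IgG arrays the next positions in the same scan, so that position and antibody cannot be told apart. The p-values rest on 2 experiments that the methods call independent. Each probe has 1 residual degree of freedom, so limma takes much of the spread from all probes tested (prior degrees of freedom 4.44). A p-value therefore need not follow the SD printed beside it. An exact permutation test of 2 arrays against 2 has 6 splits, so that it cannot reach the threshold (the smallest p is 2 splits in 6).

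The astrocyte markers did not move together. Of the 14 probes, 2 were higher with CPEB2 IgG (Sox9 and Gjb6), 5 were lower (Aldh1l1, Ndrg2, S100b and 2 of 3 Gfap probes) and 7 were not called. Over all probes tested, 12.7% were called higher and 14.8% lower, so the share of the marker probes called higher was near that of the array. Read at the brightest probe of each gene, 2 genes were higher, 3 were lower (Aldh1l1 among them, by 1 of its 2 probes) and 5 were not called, beside 17.9% higher and 16.3% lower of all 19695 genes tested. Gfap was among those not called, although 2 of its 3 probes were lower. In a separate fit on the mean of a gene's probes, 3 marker genes were higher and 4 were lower. The share of all genes called in that fit is not given here, and the 17.9% and 16.3% do not apply to it. The changes spanned 5.51 on the log2 scale, from 1.74 for Sox9 to -3.77 for the brighter Aldh1l1 probe, whereas the SD between experiments was at most 0.48 for any marker probe. Their median was -0.46 (-0.61 in experiment 1 and -0.31 in experiment 2), beside -0.20 over all probes. All 14 probes had the same sign in both experiments. With centring in 7 bins of probe base composition, the lowest of which holds the probes with at most 30% G and C, a setting chosen after seeing the data, 1 of the 14 probes was higher and 7 were lower, with a median of -0.70, and in the same fit 5381 of all 41133 probes were higher and 5862 lower. Fits with a single array left out had no block, so that level differences between experiments entered their values. In these fits the marker median ran from -0.769 without the control IgG array of experiment 2 to 0.0782 without that of experiment 1. Without either array of experiment 2 or the control IgG array of experiment 1, fewer marker probes and fewer of all probes were called. The scaled values of the antibodies did not overlap for 11 of the 14, against 65.6% of all probes tested.

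**Figure D1:**
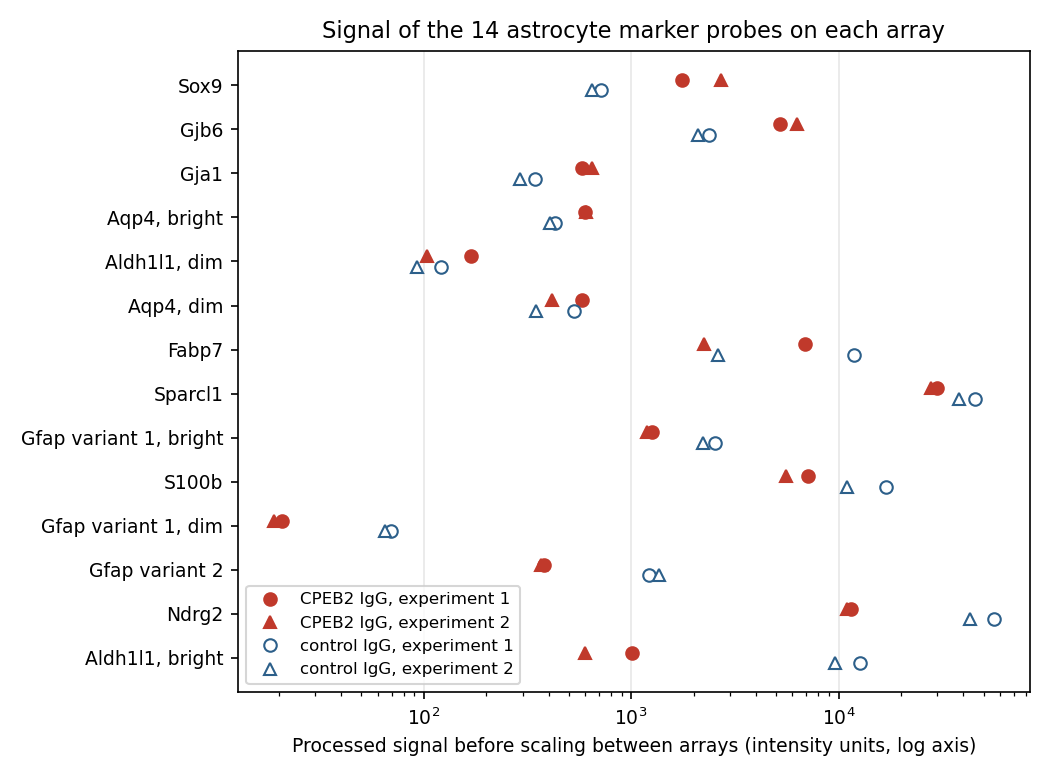
Processed signal of each of the 14 astrocyte marker probes (rows) on each of the 4 arrays, in intensity units on a log axis and before scaling between arrays. Red filled points are CPEB2 IgG and blue open points control IgG, with circles for experiment 1 and triangles for experiment 2. The CPEB2 IgG points lie to the right of the control IgG points for Sox9 and Gjb6 and far to the left for Ndrg2 and the brighter Aldh1l1 probe, and the Fabp7 points separate by experiment.

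Sox9, an SRY-box transcription factor that specifies and marks astrocytes, had the highest value of the markers with this scaling, whereas Gjb6 was higher than Sox9 after both centrings by base composition (1.57 against 1.51 and 1.40 against 0.54). Its signal was 1769 and 2702 on the CPEB2 IgG arrays of experiments 1 and 2, and 713 and 651 on the control IgG arrays. Both CPEB2 IgG values lay above both control values. The log2 fold change was 1.74 ± 0.48 (SD, n = 2), a 3.33-fold higher level, with a 95% interval of 0.95 to 2.52 (limma adjusted p = 0.0156). The Sox9 probe was spotted 10 times on each array, and the SD over its spots was between 0.05 and 0.09 on the log2 scale, below the SD of 0.48 between experiments. Without the control IgG array of experiment 2 the call was lost (1.70, limma adjusted p = 0.0538). It was also lost, with a log2 fold change of 0.54 (limma adjusted p = 0.154), when each array was centred within those 7 bins of probe base composition.

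The connexins Gjb6 and Gja1, which form the gap junctions between astrocytes, both had higher values with CPEB2 IgG, and 1 of the 2 was called. The Gjb6 signal was 5226 and 6315 on the CPEB2 IgG arrays against 2367 and 2098 on the control arrays, with no overlap. Its log2 fold change was 1.42 ± 0.27 (SD, n = 2), a 2.67-fold higher level (95% interval 0.69 to 2.15, limma adjusted p = 0.0213). This call was lost without the CPEB2 IgG array of experiment 2 (1.28, limma adjusted p = 0.0544) and without the control IgG array of experiment 1 (1.48, limma adjusted p = 0.0640) or of experiment 2 (1.36, limma adjusted p = 0.0760). The Gja1 signal, averaged over the 8 to 10 spots of its probe that were used on each array, was 579 and 649 on the CPEB2 IgG arrays against 344 and 292 on the control arrays. These values did not overlap either, but the log2 fold change of 1.01 ± 0.24 (SD, n = 2; 95% interval 0.29 to 1.72) did not pass the threshold (limma adjusted p = 0.0527). Gja1 passed in 6 of 16 alternative fits, among them the fit without the replicate block (limma adjusted p = 0.0326), and its value was 0.38 (limma adjusted p = 0.268) with centring in the 7 bins of base composition.

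Aqp4, the water channel of the endfeet, was not called at either of its probes, which lie 3413 bases apart. At the brighter probe the signal was 601 and 608 on the CPEB2 IgG arrays against 431 and 405 on the control arrays. The values did not overlap, and the log2 fold change was 0.59 ± 0.04 (SD, n = 2; 95% interval -0.11 to 1.28, limma adjusted p = 0.175). At the dimmer probe the signal was 581 and 417 on the CPEB2 IgG arrays against 528 and 348 on the control arrays, which overlap, and the log2 fold change was 0.25 ± 0.04 (SD, n = 2; 95% interval -0.44 to 0.95, limma adjusted p = 0.545). The difference between the probes' changes was 0.33 (95% interval -0.37 to 1.04, limma adjusted p = 0.391). In the same fit, over 7011 pairs of probes of one gene, 25.6% of the pairs differed in their change. Directions turned in some other fits. The difference between the Aqp4 probes was -0.0106 after centring in 8 bins of probe base composition cut at deciles and -0.27 in the 7 bins. The brighter probe was -0.04 in the latter. The dimmer probe was -0.0186 without the control IgG array of experiment 2, in a fit without the block.

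Aldh1l1, a folate-metabolizing dehydrogenase that is widely used to mark astrocytes, had the largest change of the markers, and only at one of its probes. The brighter probe read 1007 and 600.0 on the CPEB2 IgG arrays against 12652 and 9607 on the control arrays. The signal was thus far lower on both CPEB2 IgG arrays. The log2 fold change was -3.77 ± 0.29 (SD, n = 2; 95% interval -4.50 to -3.04, limma adjusted p = 0.00678), so that the control level was 13.7-fold the CPEB2 IgG level, and 0.160% of all probes tested were lower. The dimmer probe, annotated to another transcript of the gene and 937 bases further along the strand, read 169 and 104 on the CPEB2 IgG arrays against 122 and 93.2 on the control arrays. These values overlap, and the log2 fold change was 0.37 ± 0.26 (SD, n = 2; 95% interval -0.36 to 1.09, limma adjusted p = 0.393). With single arrays left out this change ran from 0.0189 (without the CPEB2 IgG array of experiment 1) to 0.716 (without that of experiment 2). The changes of the 2 Aldh1l1 probes differed by -4.14 (SE 0.25, 95% interval -4.84 to -3.44, limma adjusted p = 0.0204). Without the CPEB2 IgG array of experiment 2 the size of this difference was -4.12 with a limma adjusted p of 0.0558, and 0 of the 7011 pairs were called, although 2485 had an unadjusted p below 0.05. Where Aldh1l1 is counted as 1 gene, the count rests on the brighter probe, and the dimmer probe was not called.

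Ndrg2, an N-myc downstream-regulated gene with high expression in astrocytes, was lower with CPEB2 IgG. Its signal was 11474 and 10935 on the CPEB2 IgG arrays against 56027 and 43236 on the control arrays, with no overlap. The log2 fold change was -2.08 ± 0.17 (SD, n = 2; 95% interval -2.79 to -1.37, limma adjusted p = 0.00876), and the control level was 4.23-fold that with CPEB2 IgG. Among all probes tested, 3.23% lay below it.

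Gfap, the intermediate filament protein of astrocytes, had negative values at all 3 probes, and 2 of them were called. The probe of transcript variant 2 read 381 and 369.8 on the CPEB2 IgG arrays against 1221 and 1359 on the control arrays. Its log2 fold change was -1.73 ± 0.18 (SD, n = 2; 95% interval -2.44 to -1.02, limma adjusted p = 0.0125), a 3.31-fold higher level with control IgG. The brighter probe of variant 1, 2949 bases away, read 1262 and 1191 on the CPEB2 IgG arrays against 2533 and 2233 on the control arrays. These did not overlap, but the log2 fold change of -0.90 ± 0.03 (SD, n = 2; 95% interval -1.60 to -0.21) was not called (limma adjusted p = 0.0647). It did pass in the fit without the replicate block (limma adjusted p = 0.0392). The dimmer probe of variant 1, a further 913 bases away, read 20.8 and 19.0 on the CPEB2 IgG arrays against 69.5 and 65.1 on the control arrays, and was not well above background on the CPEB2 IgG array of experiment 2. Its log2 fold change was -1.71 ± 0.07 (SD, n = 2; limma adjusted p = 0.0123), which shrank to -0.56 after normexp background correction with an offset of 50. The differences between the changes of the Gfap probes did not pass the threshold. The brighter probe of variant 1 exceeded that of variant 2 by 0.82 (95% interval 0.09 to 1.56, limma adjusted p = 0.0952) and the dimmer one by 0.81 (95% interval 0.10 to 1.51, limma adjusted p = 0.0934). With normexp the former difference did pass (0.74, limma adjusted p = 0.0433) and the latter turned to -0.28. The size of the latter is uncertain, because the dimmer probe was not well above background on the CPEB2 IgG array of experiment 2.

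S100b, a calcium-binding protein of astrocytes, was lower with CPEB2 IgG at the edge of the threshold. Its signal was 7146 and 5581 on the CPEB2 IgG arrays against 16884 and 10942 on the control arrays, with no overlap. The log2 fold change was -1.05 ± 0.15 (SD, n = 2; 95% interval -1.76 to -0.35, limma adjusted p = 0.0442), a level 2.07-fold higher with control IgG. The call was lost without the replicate block (limma adjusted p = 0.0608). It was also lost with median centring (-0.83, limma adjusted p = 0.0825), with the 8 bins of base composition and when any array was left out. The log2 fold changes with an array left out ran from -1.34 without the control IgG array of experiment 2 (limma adjusted p = 0.0828) to -0.77 without that of experiment 1 (limma adjusted p = 0.275).

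Sparcl1, a secreted matrix protein that promotes synapse formation, was not called. Its signal was 29979 and 27991 on the CPEB2 IgG arrays against 45717 and 37927 on the control arrays, without overlap, and the log2 fold change was -0.47 ± 0.08 (SD, n = 2; 95% interval -1.17 to 0.23, limma adjusted p = 0.264). The change was -0.120 with quantile normalization and -0.243 with median centring.

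Fabp7, a fatty acid-binding protein of radial glia and astrocytes, had signals that lay further apart between experiments than between antibodies, though neither difference was called. Its signal was 6929.5 with CPEB2 IgG and 11853 with control IgG in experiment 1, and 2246 and 2636 in experiment 2. Both arrays of experiment 1 were above both arrays of experiment 2, so the antibodies overlapped. The log2 fold change between antibodies was -0.45 ± 0.34 (SD, n = 2; 95% interval -1.19 to 0.29, limma adjusted p = 0.311). It was negative in both experiments (-0.69 and -0.21). The fits with an array left out had no block, so the level difference between experiments entered their values. The Fabp7 value was then 0.36 without the CPEB2 IgG array of experiment 2 and 0.60 without the control IgG array of experiment 1. It was -1.26 without the CPEB2 IgG array of experiment 1 and -1.50 without the control IgG array of experiment 2. The level in experiment 1 was 3.65-fold that in experiment 2, a log2 difference of 1.87 that was compared only after the values were seen. This difference did not pass limma's test either (adjusted p = 0.155), in which 0.151% of all probes and 0 of the 14 marker probes were called, and 1.28% of all probes were at least as far apart. The other marker probes differed between experiments by -0.27 to 0.54 on the log2 scale. In such tissue lysates fewer cells of a type and less RNA per cell cannot be told apart. Without RNA of the lysate, differences between experiments in recovery, amplification or labeling cannot be told apart from these either. None of them was tested.

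**Figure D2:**
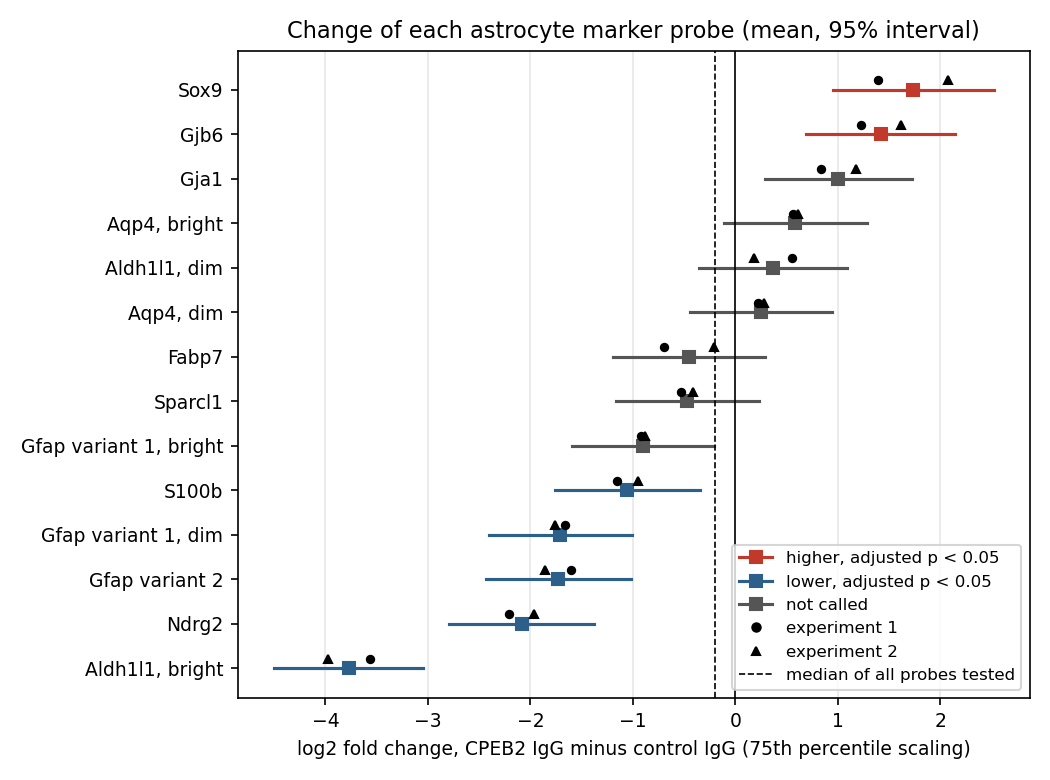
Log2 fold change of each marker probe, CPEB2 IgG minus control IgG. Squares with lines are the mean and limma's 95% interval, small circles and triangles are experiments 1 and 2, red marks the 2 probes called higher, blue the 5 called lower and grey the 7 not called, and the dashed line is the median of all probes at -0.20. The brighter Aldh1l1 probe at -3.77 and the dimmer one at 0.37 lie far apart.

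The direction of the markers was also set beside the base composition of their probes. Over all probes tested, the median log2 fold change fell from 1.00 in probes with at most 30% G and C (560 probes) to 0.34 between 30% and 35%, -0.06 between 35% and 40%, -0.28 between 40% and 45% and -0.45 between 45% and 50%. The marker probes had 30% (Sox9) to 48.3% (the dimmer Aldh1l1 probe) G and C. Gja1 and the brighter Aqp4 probe, with positive values, had 35%, and Ndrg2, Gfap variant 2 and the brighter Aldh1l1 probe, all lower, had 45%. Fabp7, at the same 35% as Gja1, had a value of -0.45. S100b, called lower at -1.05, had 36.7%, and Gjb6, called higher at 1.42, had 40%. The dimmer Aldh1l1 probe, with the highest percent of the marker probes, had a value of 0.37.

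Each array was then centred within bins of probe G and C content in 2 ways, and each left 6 of the 7 calls, though not the same 6. The first used 8 bins cut at deciles of all probes, the lowest of which took every probe up to 35% together. Sox9 was then 1.51 (limma adjusted p = 0.0126), Gjb6 1.57 (0.0121), Ndrg2 -1.77 (0.00830), Gfap variant 2 -1.41 (0.0124), the dimmer Gfap variant 1 probe -1.39 (0.0138) and the brighter Aldh1l1 probe -3.46 (0.00225), with limma adjusted p-values in parentheses. S100b at -0.93 (limma adjusted p = 0.0549) no longer passed. The dimmer Aldh1l1 probe moved from 0.37 to 0.87 without passing (limma adjusted p = 0.0580). The second, chosen after seeing the data, used the 7 bins of the plot against base composition and the medians of the tested probes in them, so that Sox9 was set against the probes with at most 30%. Sox9 was then 0.54 and lost its call (limma adjusted p = 0.154), and 1 probe, Gjb6, was higher at 1.40 (limma adjusted p = 0.0210). Gja1 was at 0.38 and the brighter Aqp4 probe at -0.04, neither called (limma adjusted p-values 0.268 and 0.913). S100b kept its call at -1.07 (limma adjusted p = 0.0335), and Fabp7 at -1.08 (limma adjusted p = 0.0329) and the brighter Gfap variant 1 probe at -0.92 (limma adjusted p = 0.0457) joined, which made 7 probes lower. The part of base composition in the remaining values was not tested.

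**Figure D3:**
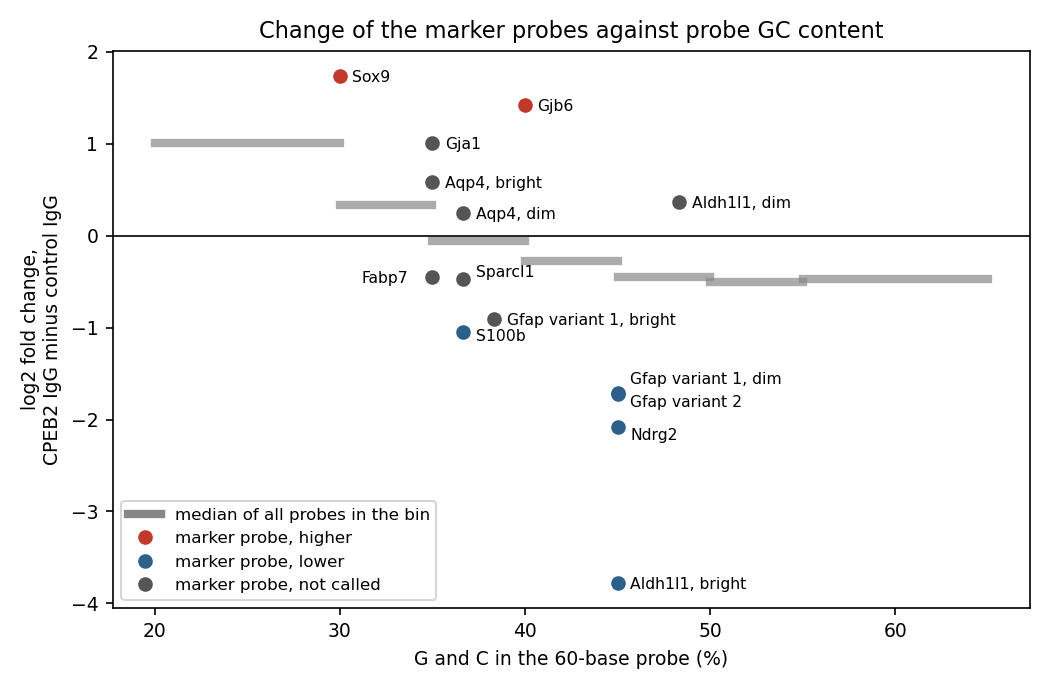
Log2 fold change of each marker probe against the percent of G and C in its 60 bases. Grey bars are the median of all tested probes in each bin, the outermost of which are open-ended, and red, blue and grey points are marker probes called higher, lower or not called. The bars descend from 1.00 to about -0.5, and Sox9, Gjb6 and the dimmer Aldh1l1 probe lie above the bar of their bin while Ndrg2 and the brighter Aldh1l1 probe lie well below it.

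The signal and enrichment thresholds of the study's methods, a raw signal above 1000 and more than 1.5-fold enrichment, were applied as a description without a test, with the enrichment taken here as the mean over both experiments on the log2 scale. The methods also ask for a CPE in the 3′ end, which was not applied here because no transcript sequence was used. With CPEB2 IgG, 8 of the 10 markers exceeded 1000 on at least 1 array, and 2 of them, Gjb6 and Sox9, also passed the fold change. Over all genes above that signal 47.7% passed. With the antibodies exchanged, 7 markers had such a signal on a control IgG array and 4 passed (Aldh1l1, Gfap, Ndrg2 and S100b), beside 41.3% of all genes above the signal.

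Other genes of astrocytes, 54 in a list that leaves out the 10 markers, were also called in both directions. Of the 53 tested, 16 (30.2%) were higher, 12 (22.6%) were lower and 25 were not called, beside 17.9% higher and 16.3% lower of all genes, and Tnc was not tested. Their median log2 fold change was 0.02 (range -3.28 to 2.60), beside -0.11 over all genes, and its sign changed with the scaling of the arrays, from 0.25 with median centring to -0.09 with the percentile of the probes detected on all arrays. Without either array of experiment 2 or the control IgG array of experiment 1, fewer of these genes and fewer of all probes were called. Without the CPEB2 IgG array of experiment 1, fewer of these genes were called higher, while calls over all probes changed little. With single arrays left out, the median of these genes ran from -0.219 to 0.248. Their probes had a median of 45% G and C.

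The highest of these genes was Entpd2, an enzyme that breaks down extracellular ATP, with a signal of 1511 and 984 on the CPEB2 IgG arrays against 243 and 178 on the control arrays and a log2 fold change of 2.60 ± 0.16 (SD, n = 2; limma adjusted p = 0.00683). Next were Atp1b2, a subunit of the sodium pump, at 2.51 ± 0.57, Hes5, a transcriptional repressor downstream of Notch, at 2.15 ± 0.07, the peptide transporter Slc15a2 at 2.15 ± 0.22 and the metallothionein Mt2 at 1.71 ± 0.18 (limma adjusted p-values from 0.00805 to 0.0126). The last of these was called in 12 of 16 alternative fits and lost its call without the filter on dim probes, without either CPEB2 IgG array or without the control IgG array of experiment 2, with Mt2 values from 1.43 to 2.00 over all fits.

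The lowest was Cbs, an enzyme of cysteine synthesis, at 658 and 512 on the CPEB2 IgG arrays against 6371 and 5401 on the control arrays, a log2 fold change of -3.28 ± 0.13 (SD, n = 2; limma adjusted p = 0.00678). Aldoc, the glycolytic aldolase of the brain, read 30139 and 22718 on the CPEB2 IgG arrays against 225494 and 183759 on the control arrays, a log2 fold change of -2.91 ± 0.12 (SD, n = 2; limma adjusted p = 0.00678). Acsbg1, an acyl-CoA synthetase, was at -2.83 ± 0.21, the glutathione transferase Gstm1 at -2.55 ± 0.30 and the mitochondrial glutamate carrier Slc25a18 at -1.81 ± 0.29 (limma adjusted p-values from 0.00678 to 0.0120). Slc25a18 lost its call without the CPEB2 IgG array of experiment 2 or the control IgG array of experiment 1, with values from -2.15 to -1.47 over all fits.

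Members of 1 gene family could differ in direction. Among the metallothioneins, looked at after their values were seen, Mt2 was higher at 245862 and 198280.4 against 86847 and 56255, Mt3 was lower at 6523 and 4204 against 15795 and 13745 (-1.44 ± 0.35, limma adjusted p = 0.0220), and Mt1 was not called at -0.58 ± 0.10 (limma adjusted p = 0.183), though it was called lower in 2 of 16 alternative fits (normexp and an intensity trend). These genes are similar in sequence, so that a probe may also bind RNA of a relative. The sign of each was the same in all fits, and Mt3 lost its call without the CPEB2 IgG array of experiment 2 or either control IgG array, with values from -1.76 to -0.93 over all fits. Nfia and Nfib, transcription factors of astrocyte development that were also picked out afterwards, were higher like Sox9, at 1.63 ± 0.70 (limma adjusted p = 0.0244) and 1.02 ± 0.05 (limma adjusted p = 0.0462). Vim, a filament protein like Gfap and likewise chosen after its value was seen, was lower at -1.29 ± 0.35 (limma adjusted p = 0.0300). Nfib and Vim lost their calls whenever an array was left out (Nfib also with the percentile of the probes detected on all arrays) and Nfia without either array of experiment 2 and with centring in the 7 bins of base composition, with values from 0.92 to 1.25 for Nfib, from -1.45 to -1.06 for Vim and from 1.00 to 1.95 for Nfia over all fits.

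Of the glutamate cycle genes of astrocytes, Slc1a3 was higher at 28729 and 26888 with CPEB2 IgG against 3302 and 2133 (3.44 ± 0.34, limma adjusted p = 0.00678), and Slc1a2 at 3716 and 2978 against 1683 and 1162 (1.30 ± 0.11, limma adjusted p = 0.0244), the latter call being lost whenever an array was left out (Slc1a2 values from 1.07 to 1.54 over all fits). Glul, which makes glutamine, was not called at 0.59 ± 0.05 (limma adjusted p = 0.172). Its signal was 81718 and 66851 with CPEB2 IgG against 58976 and 43909, and its mean enrichment lay just above 1.5-fold. Glul thus passed the study's signal and enrichment thresholds, which involve no test. It was called in 2 of 16 alternative fits, with normexp and with an intensity trend. Its values ran from -0.03, with the 7 bins of base composition, to 0.87. The paper also found Glul, Slc1a2 and Slc1a3 among the RNAs precipitated with CPEB2.

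Of 15 listed genes that astrocytes induce after injury or inflammation, 11 were tested. Of these, 2 (18.2%) were higher, a share near the 17.9% of all genes, and 0 were lower, beside 16.3% of all genes. At an unadjusted limma p below 0.05 there were 3 higher and 1 lower. At that threshold 7242 of all 41133 probes were higher and 9731 were lower. The median was -0.12, and its sign turned with quantile normalization, median centring, normexp and both centrings by base composition, and without either array of experiment 2 (0.0525 without that of CPEB2 IgG and 0.0952 without that of control IgG). The genes called were Emp1, a membrane protein, at 304 and 420.2 with CPEB2 IgG against 82.4 and 82.2 (2.17 ± 0.29, limma adjusted p = 0.00851), and Cd14, a receptor for bacterial lipopolysaccharide, at 197 and 183 against 70.5 and 63.3 (1.56 ± 0.01, limma adjusted p = 0.0149). Cd14 is also expressed by microglia, and its call was lost without the control IgG array of experiment 2 (1.52, limma adjusted p = 0.0548). The size of its change ran from 0.92 with normexp to 2.07 with the 7 bins of base composition.

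Markers of other cell types were recovered with both antibodies, and their counts stand beside 17.9% higher and 16.3% lower of all genes. With 9 or 10 genes in a list, each gene is a large share of it. Neuron markers had 1 higher and 4 lower of 10, with a median of -0.74, from Map2, a microtubule-associated protein of dendrites, at 2.43 ± 0.48 to Nefm, a neurofilament, at -3.54 ± 0.45. Oligodendrocyte markers had 1 higher and 2 lower of 10, with a median of -0.18, from the tight junction protein Cldn11 at 1.18 ± 0.04 to the myelin enzyme Cnp at -1.96 ± 0.24. Microglia markers had 2 higher and 4 lower of 10, with a median of -0.67, from the purinergic receptor P2ry12 at 2.30 ± 0.39 to the actin-binding protein Aif1 at -2.64 ± 0.14. Endothelial markers had 1 higher and 0 lower of 9 tested, with a median of -0.11. At an unadjusted limma p below 0.05 they had 1 higher and 3 lower, beside 7242 higher and 9731 lower of all 41133 probes. They ran from Cdh5, the adhesion protein of endothelial junctions, at 1.57 ± 0.46 to Kdr, a receptor for vascular growth factor, at -0.96 ± 0.45. The latter was not called. Kdr was called lower in 5 of 16 alternative fits, one of them without the CPEB2 IgG array of experiment 1 (-1.35, limma adjusted p = 0.0379), with values from -1.35 to -0.45 over all fits. The medians of the oligodendrocyte and endothelial lists turned positive with median centring. The endothelial median was -0.353 without the control IgG array of experiment 2, -0.0341 without that of experiment 1 and -0.0652 without the CPEB2 IgG array of experiment 1. The oligodendrocyte median was -0.301 without the control IgG array of experiment 1. With the 7 and the 8 bins of base composition the oligodendrocyte median was -0.0592 and -0.0113, and the microglia median -0.422 and -0.357. The microglia median was -0.439 with median centring. The neuron median ran from -1.07 with the 7 bins to -0.486 with quantile normalization. Cldn11 lost its call whenever an array was left out and with the 7 bins (0.56 to 1.41 over all fits), and Cdh5 without either array of experiment 2 (0.94 to 1.80). Without either array of experiment 2 or the control IgG array of experiment 1, fewer microglia genes and fewer of all probes were called lower. Genes called in both directions were thus found in the lists of astrocytes, neurons, oligodendrocytes and microglia, and whether the lists differ from each other was not tested.

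**Figure D4:**
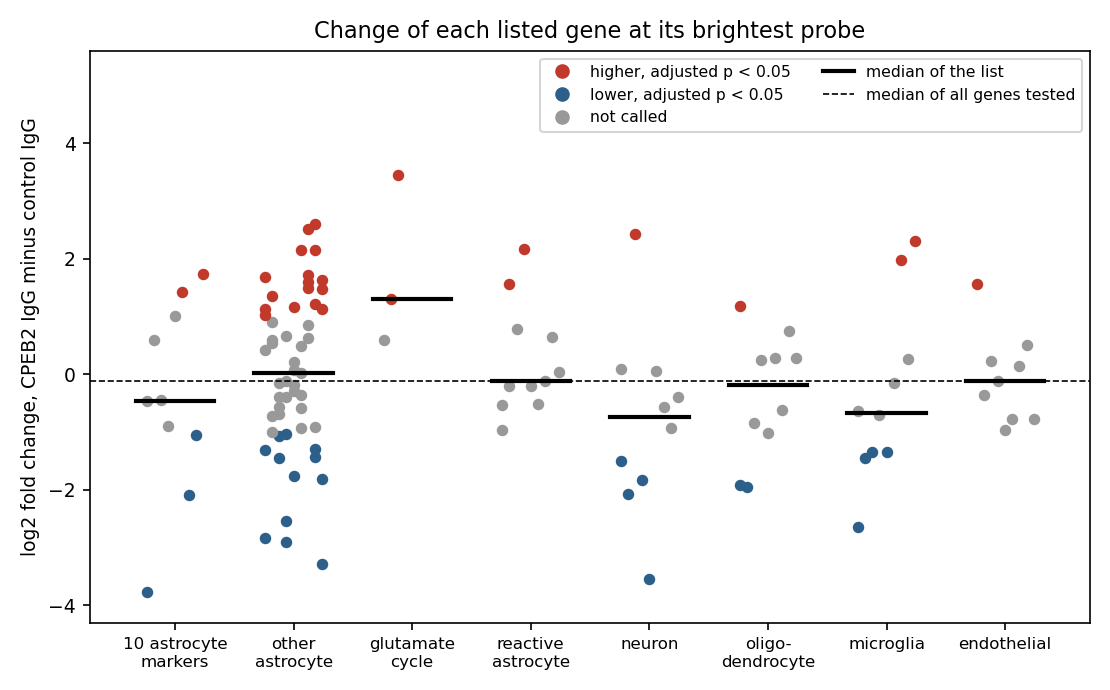
Log2 fold change, CPEB2 IgG minus control IgG, of each listed gene at its brightest probe. Each point is a gene, red called higher, blue called lower and grey not called, the black bars are the medians of the lists and the dashed line is the median of all genes at -0.11. The 10 markers spread from 1.74 to -3.77 and the 53 other astrocyte genes from 2.60 to -3.28.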

How the data were processed

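RIP-microarray data of 4 one-color Agilent SurePrint G3 mouse arrays were used. The files deposited by the authors hold, for every spot, the processed signal of Agilent Feature Extraction 10.5.1.1, an intensity after background correction and before scaling between arrays. Controls, non-uniform spots and outlier spots were left out, repeated spots were averaged, 66 probes without a value on an array were dropped, and log2 signals were scaled to each array's 75th percentile. limma 3.58.1 in R 4.3.3 was fitted to 41133 probes detected on at least 2 arrays, with 1 residual degree of freedom, and was tested on simulated data. The pairing comes from the methods, which divide each lysate between the antibodies, and arrays of one experiment deviated together (correlation 0.206). Python 3.11.15, numpy 2.4.6, pandas 2.3.3 and scipy 1.17.1 served for the rest. Gene symbols and mm9 positions are those of the array annotation, and no genome was used here to place probes in exons or untranslated regions.

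The members and lists were chosen with earlier results of these data known. Named were all members, the 5 highest and 5 lowest called of the other astrocyte genes, up to 3 each way of the injury genes, the highest and lowest of each other cell type, and Slc1a2, Slc1a3 and Glul. The alternatives were other scalings, normexp, centring by probe base composition, marked spots kept, other filters on dim probes, no block, an intensity trend, the mean of a gene's probes, other thresholds, and each array or pair left out. Centring within the 7 plotted bins of base composition was added after seeing the data.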

Additional observations from a re-analysis of the deposited data

How the results depend on the processing

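Precision was limited by having 2 arrays for each antibody. Of the calls at single marker probes, those of the brighter Aldh1l1 probe, Ndrg2 and Gfap variant 2 were kept in 15 of 16 alternative fits, the dimmer Gfap variant 1 probe in 14 of 15, Sox9 in 13 of 16, Gjb6 in 12 and S100b in 8, while Gja1 and the brighter Gfap variant 1 probe passed in 6 and Fabp7 in 1. The fit without the filter on dim probes called 0 everywhere, for all probes, marker probes, marker genes, other astrocyte genes and probe pairs, although at an unadjusted p below 0.05 limma gave 7020 higher and 9073 lower of 55615 probes, 3 and 6 of the marker probes, 3 and 4 of the marker genes, 19 and 16 of the other astrocyte genes and 3033 of 9051 pairs. There the brighter Aldh1l1 probe had an adjusted p of 0.0961. Without the replicate block 3 marker probes were higher and 5 lower, and 5432 and 5928 of all probes. The block changed the calls of Gja1, S100b and the brighter Gfap variant 1 probe and no other call of a marker probe.

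Scaling moved the median of all probes by 0.23 with median centring, 0.24 with centring by base composition (in 8 bins), 0.16 with quantile normalization, 0.13 with normexp -0.11 with the percentile of probes detected on all arrays and 0.15 with the plotted bins. Higher probes made up 46.2% of the calls, 57.3% with median centring, 56.0% with centring by base composition, 40.6% with the percentile of detected probes and 42.3% with no scaling. The median of the marker probes and of the marker genes was -0.23 with median centring. The median of the other astrocyte genes, 0.02, was 0.0809 with quantile normalization, 0.25 with median centring, -0.0311 with no scaling, -0.0852 with the percentile of detected probes, 0.14 with centring by base composition, -0.00322 with no filter, -0.00360 and -0.0621 with experiment 1 or 2 left out and 0.0794 with the mean of a gene's probes. The median of the reactive astrocyte genes turned to 0.0573 with quantile normalization, 0.107 with median centring, 0.0377 with normexp, 0.252 with centring by base composition, 0.0162 with no filter and 0.113 without experiment 2. That of the endothelial genes turned to 0.120 with median centring, 0.0441 with centring by base composition and 0.0184 with no filter, and that of the oligodendrocyte genes to 0.0453 with median centring. The difference between the brighter and dimmer Gfap variant 1 probes turned to -0.28 with normexp, and that between the Aqp4 probes to -0.0106 with centring by base composition. The marker genes past the study's signal and enrichment thresholds with CPEB2 IgG rose from 2 to 4 with a raw signal above 500, Aqp4 at a fold of 1.5005, while all genes past them rose from 3358 to 4110. Centring within the 7 plotted bins of base composition, chosen after seeing the data, gave 1 marker probe and 1 marker gene higher and 5 marker genes lower, a median of -0.705 for the marker probes and for the marker genes, 0.298 for the reactive astrocyte genes, -0.0405 for the brighter Aqp4 probe, -0.274 for the difference between the Aqp4 probes and -0.0343 for Glul.

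With single arrays left out, fitted on 3 arrays without the block and with the lone array assumed to vary like the others, the counts of all probes ran from 2740 to 5010 higher and 2542 to 6333 lower, marker probes from 0 to 2 higher (0 without the control IgG array of experiment 2, where 2 had an unadjusted p below 0.05), marker genes from 0 to 2 higher, other astrocyte genes from 4 to 10 higher and 5 to 13 lower, and probe pairs from 0 to 1355 (0 without the CPEB2 IgG array of experiment 2, where 2485 of 7011 had an unadjusted p below 0.05). The median of the marker probes ran from -0.769 to 0.0782, of the marker genes from -0.769 to 0.118, of the other astrocyte genes from -0.219 to 0.248 of the reactive astrocyte genes from -0.130 to 0.0952, of the endothelial genes from -0.353 to -0.0341 and of the oligodendrocyte genes from -0.301 to -0.228. Fabp7 ran from -1.50 to 0.605 and turned positive without the CPEB2 IgG array of experiment 2 (0.363) or the control IgG array of experiment 1, and the dimmer Aqp4 probe ran from -0.0186, without the control IgG array of experiment 2, to 0.522. Without the block, level differences between experiments entered these values, for Fabp7 a log2 difference of 1.87. Other causes of these changes were not tested. Keeping marked spots was not run for probe pairs.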
